A study of Arabidopsis thaliana with 17 samples.

Results

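In Arabidopsis thaliana seedlings lacking normal AtDGCR14L expression, 91 of the 27655 loci in the deposited counts were lower in the mutant than in both other lines before salt and again after 24 h of salt. They were chosen by a rule on CPM, the count of a locus per 1000000 counts of its library. A locus was kept if its Col-0 mean was at least 5 CPM at both times, if at 0 h and at 24 h every mutant library lay below every Col-0 and every OE-6 library, and if the mutant mean was at most 0.75 of the Col-0 mean and of the OE-6 mean. AtDGCR14L itself (AT3G07790) and the loci COR15A, COR15B, KIN2, DREB1A, ELF4, FKF1 and NOL were left out by name. The levels of the mutant against the other lines therefore chose these genes, and every such level below is a description without a test.

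The study compared Col-0, the wild-type accession, with atdgcr14l-1, a mutant of AtDGCR14L, and with OE-6, a single complementation line that carries AtDGCR14L behind the constitutive 35S promoter in the atdgcr14l-1 background. Seedlings in hydroponic culture, 14 days old, received 200 mM NaCl and were taken before it (0 h) or 24 h into it. Strand-specific poly(A) RNA libraries numbered 17, with n = 2 for Col-0 before salt and n = 3 for every further combination of line and time. No unsalted seedlings at 24 h were analysed here, so a change from 0 h to 24 h holds the salt and the passage of time together. Nothing in the labels says that replicates were separate plants or cultures, and p-values then measure only the spread between these samples, which may be technical.

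AtDGCR14L belongs to a conserved family of nuclear proteins associated with the spliceosome, the RNA and protein machine that removes introns from transcripts, and the study was set up to follow its role in splicing and in salt tolerance. Steady-state transcript level depends on synthesis, on processing and on decay, and gene-level counts do not tell these apart. In bulk seedling RNA, fewer cells of a type and less RNA per cell cannot be told apart either.

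AtDGCR14L averaged 7.68 ± 0.90 CPM (SD, n = 3) in the mutant at 0 h, 54.9 ± 4.1 (n = 2) in Col-0 and 45.3 ± 4.3 (n = 3) in OE-6. At 24 h the means were 12.4 ± 1.2, 78.0 ± 4.4 and 77.9 ± 8.1 CPM (n = 3 each). Libraries held 53058673 to 56464259 estimated counts. Spearman correlations among libraries of a group averaged 0.9735 to 0.9959 per library, and the lowest were those of the OE-6 24 h libraries (0.9758, 0.9735 and 0.9785 for replicates 1 to 3), followed by atdgcr14l-1 24 h replicate 3 (0.9793). Of 7 root markers SCR alone was above 0.4 CPM (group means 26.7 to 29.8), and RHD6, which defines root hairs, was listed at 0 in every group. The labels call the tissue seedling and do not say whether roots were included. In contrast, 5 green shoot markers summed to 16455 to 33570 CPM. Flower markers summed to 11.1 to 24.3 CPM in OE-6 at 0 h and 3.20 to 4.14 in Col-0, and reached 43.6 in 1 OE-6 library at 24 h, a difference whose part in the levels below was not tested.

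Among the 91 genes, the mutant mean was 0.326 to 0.749 of the Col-0 mean at 0 h, with a median of 0.669. At 24 h it was 0.308 to 0.747, with a median of 0.593. The ratio of CPM was lower at 24 h than at 0 h for 68 of the 91 genes, but on the TMM-scaled values of the edgeR fit, whose library sizes are adjusted for composition, the difference was more negative at 24 h for 52 and less negative for 39. The mutant stood at 0.5 of Col-0 or less for 9 genes at 0 h, for 16 at 24 h and for 5 at both times. The separation alone, without the ratio limit, was met by 489 of the 14159 loci at 5 CPM or more in Col-0 (3.45%). The same rule with the direction turned round gave 211 loci. Just inside the limit lay AT4G32340, AT3G52710 and AT4G16190, whose highest ratios were 0.749, 0.748 and 0.748, and just outside it lay AT5G58200, SEX4 and AT1G44120 at 0.7501, 0.7502 and 0.751.

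**Figure D1:**
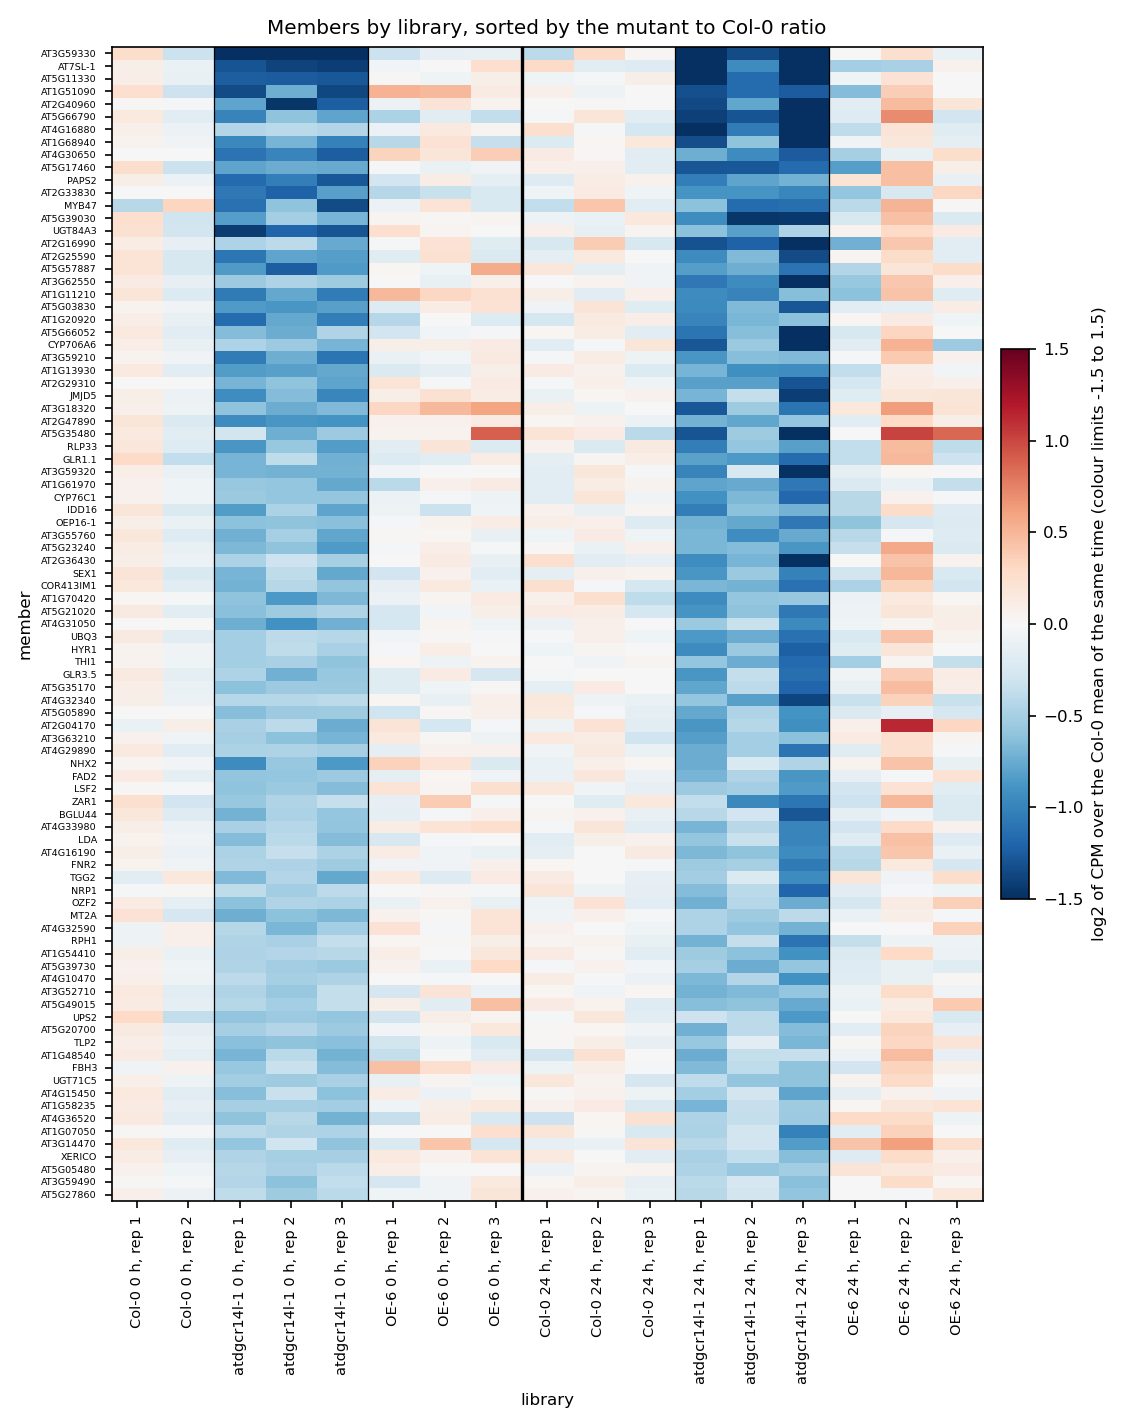
Level of each of the 91 genes (rows) in each of the 17 libraries (columns) as log2 of CPM over the Col-0 mean of the same time, with colours limited to -1.5 and 1.5. All mutant columns are blue, since the rule asked for it, and the mutant replicate 3 at 24 h is the darkest, with a median of -0.99.

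The rows and columns of that heatmap also show how evenly the libraries carried the difference. The median of the 91 genes, as log2 of CPM over the Col-0 mean of the same time, was -0.54 to -0.65 in the mutant libraries at 0 h. At 24 h it was -0.73, -0.60 and -0.99 in mutant replicates 1, 2 and 3. OE-6 libraries had medians of -0.04, 0.02 and 0.04 at 0 h and -0.18, 0.27 and -0.01 at 24 h. OE-6 24 h replicate 2 was therefore the highest library of the series for these genes and atdgcr14l-1 24 h replicate 3 the lowest, and each was also the least correlated of the 3 libraries of its own group.

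The fit across all genes, edgeR's quasi-likelihood test with Benjamini-Hochberg adjustment over 21282 genes, held all 91. Against Col-0 it called 37 of them lower in the mutant at 0 h, where it called 0.573% of all genes tested lower. The later count was 77 at 24 h, where the share of all genes was 4.67%. Against the mutant it called 49 higher in OE-6 at 0 h (1.48% of all genes) and 85 at 24 h (5.17%). Because the rule used these contrasts, nothing is read from the counts. Against Col-0 at both times 36 of the 91 were called lower (0.334% of all genes), and in all 4 contrasts 35 (0.273%). The count of 37 became 5 or 8 without Col-0 0 h replicate 1 or 2, 14, 16 or 12 without mutant 0 h replicate 1, 2 or 3, and 61 without OE-6 24 h replicate 2. The count of 77 became 51 without mutant 24 h replicate 3, and that of 85 became 56 without it and 54 without OE-6 24 h replicate 2. When only the 2 groups compared entered the fit, the counts against Col-0 were 87 at 0 h and 46 at 24 h, and those against OE-6 were 89 and 0. Of all genes, 2330, 827, 3185 and 7 were then called in either direction. For the 0 by edgeR, 88 members had an unadjusted p under 0.05, and DESeq2 with all groups called 89 members. Leaving out both OE-6 24 h replicate 2 and mutant 24 h replicate 3 gave 81 and 77 against Col-0, and 85 and 36 against OE-6. Of all genes, 1048, 2382, 2007 and 1155 were then called.

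**Figure D2:**
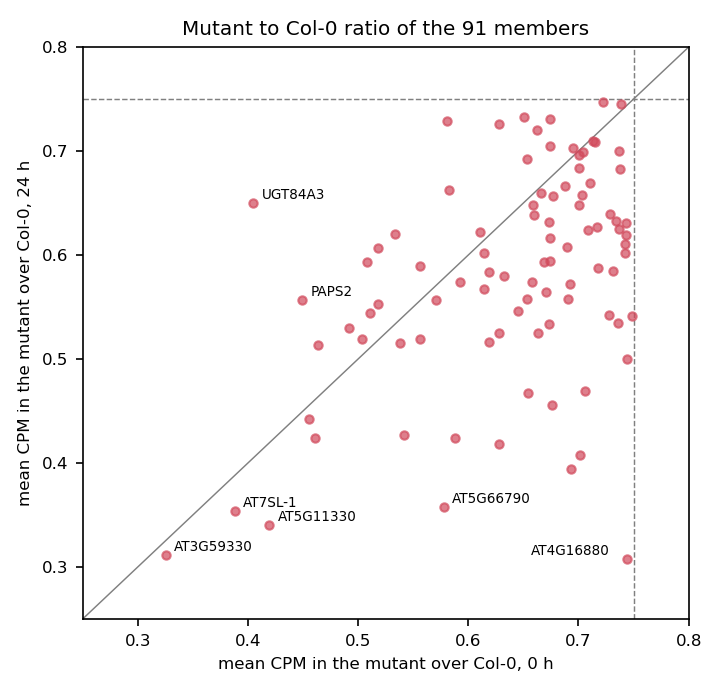
Mean CPM in the mutant over mean CPM in Col-0 at 0 h (horizontal) and 24 h (vertical) for the 91 genes, 1 point each, with the limit of 0.75 dashed and the line of equal ratios drawn. AT3G59330 is low at both times (0.326 and 0.312), AT4G16880 lowest at 24 h (0.744 and 0.308), and UGT84A3 lies above the line (0.405 and 0.65).

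The gene with the lowest ratio at 0 h, and by the geometric mean of both times, was AT3G59330, annotated as a solute carrier family 35 protein, a class of membrane transporters for nucleotide sugars and similar molecules. At 0 h it measured 3.22, 2.83 and 2.92 CPM in the mutant, against 11.0 and 7.31 CPM in Col-0 and 7.33, 8.43 and 8.46 CPM in OE-6. At 24 h it measured 1.42, 2.18 and 1.58 CPM in the mutant, against 4.21, 6.78 and 5.63 CPM in Col-0 and 5.54, 6.56 and 5.17 CPM in OE-6. The mutant libraries lay well under the others at both times, at 0.326 and 0.312 of the Col-0 mean, although the Col-0 replicates at 0 h differed from each other by more than the mutant ones did. Its neighbour AT3G59320, of the same annotated family and 2.5 kb away on chromosome 3 by gene start, had ratios of 0.614 and 0.567. Of the other genes annotated as transporters, the ureide permease UPS2, which moves uracil and allantoin, had ratios of 0.674 and 0.705. AT2G16990, of the major facilitator superfamily, went from 0.694 at 0 h to 0.394 at 24 h.

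Genes with a part in RNA handling included some of the lowest ratios. AT7SL-1 encodes 7SL RNA, the RNA scaffold of the signal recognition particle that brings nascent secretory proteins to the endoplasmic reticulum. It is not a messenger RNA, so its level in poly(A) libraries is not its cellular abundance. Before salt it measured 3.997, 3.75 and 3.69 CPM in the mutant, against 10.4 and 9.18 CPM in Col-0 and 9.56, 9.76 and 11.6 CPM in OE-6. After salt it measured 3.97, 6.48 and 2.76 CPM in the mutant, against 15.2, 11.2 and 10.9 CPM in Col-0 and 8.71, 8.88 and 13.0 CPM in OE-6. Every mutant library lay at or under 6.48 CPM and every other library at or above 8.71.

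PAPS2 encodes a nuclear poly(A) polymerase, which adds the poly(A) tail to transcripts. At 0 h it measured 16.6, 18.1 and 15.5 CPM in the mutant, against 39.5 and 35.1 CPM in Col-0 and 30.7, 40.2 and 33.7 CPM in OE-6. The 24 h libraries held 18.6, 22.1 and 23.4 CPM in the mutant, against 33.6, 41.4 and 40.2 CPM in Col-0 and 44.2, 52.4 and 35.5 CPM in OE-6. Its ratios of 0.449 and 0.557 were closer to 1 after salt than before. AT1G20920, named RCF1 (regulator of CBF gene expression 1), encodes a DEAD-box RNA helicase known from Arabidopsis to act in splicing and in cold tolerance. It stood at 29.7, 38.9 and 32.2 CPM in the mutant, against 71.1 and 61.3 CPM in Col-0 and 49.4, 65.9 and 57.6 CPM in OE-6 at 0 h. At 24 h it stood at 22.6, 27.9 and 29.4 CPM in the mutant, against 37.4, 49.3 and 48.0 CPM in Col-0 and 45.7, 48.9 and 42.9 CPM in OE-6. The mutant mean was 0.508 and 0.593 of the Col-0 mean, and no mutant library reached the others of its time. Both genes are overlapped by another gene on the opposite strand, and whether counting used the strand is not given in the sources used here.

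AT2G40960, an R3H-domain protein that binds single-stranded nucleic acid, had ratios of 0.456 and 0.442, but a stretch of 355 bases is identical in AT2G40955, so the division of reads between them is uncertain. AT1G61970, a member of the mitochondrial transcription termination factor family, had ratios of 0.645 and 0.547.

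**Figure D3:**
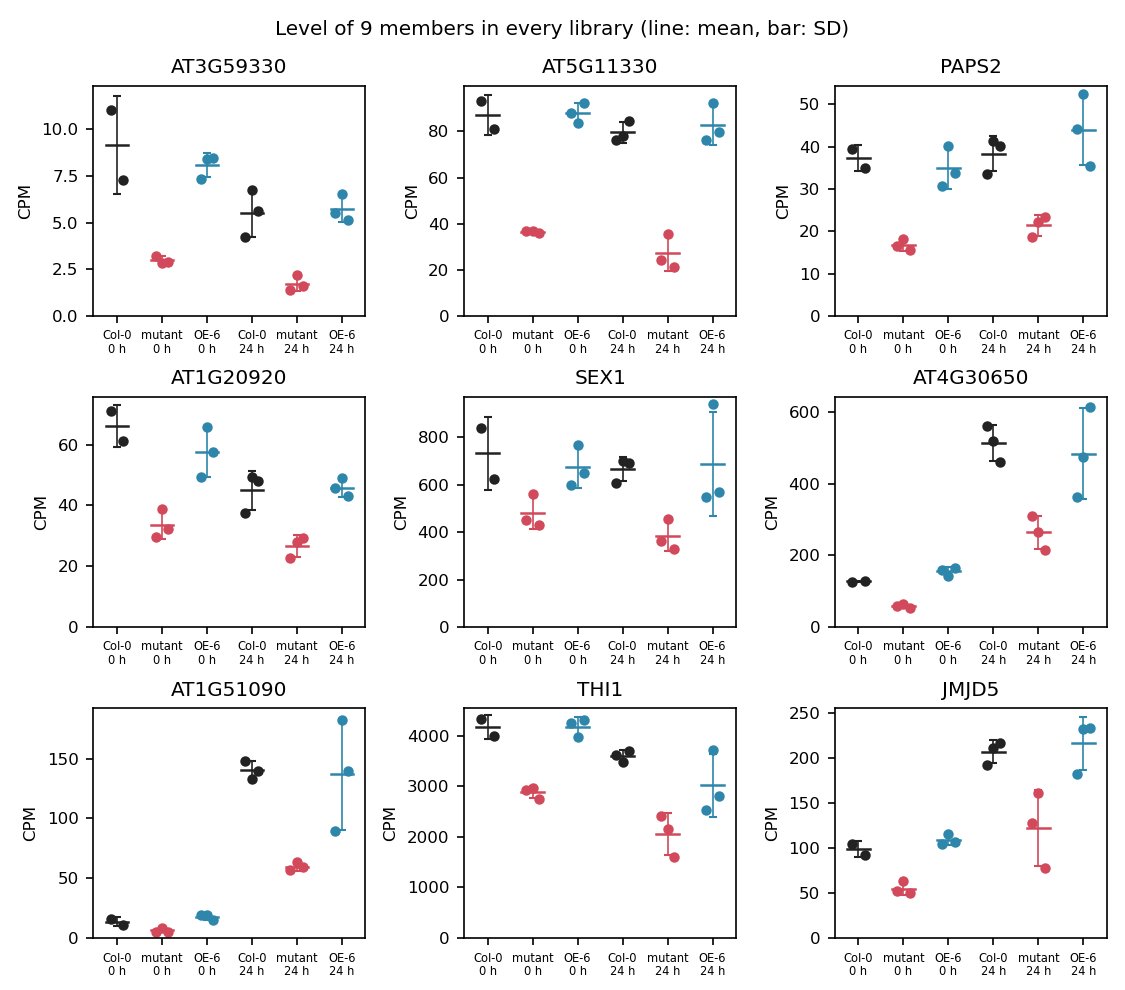
CPM of 9 genes in every library, with points for libraries, a horizontal line for the group mean and a bar for the SD (n = 2 for Col-0 0 h, 3 elsewhere); each panel starts at 0. In each panel the mutant points lie under those of Col-0 and OE-6 of the same time, and AT4G30650 and AT1G51090 are higher at 24 h in all 3 lines.

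Known or annotated links to cold, salt, dehydration or metal stress were found for 10 genes, grouped by those roles after their values had been seen. Their ratios ran from 0.461 to 0.737 at 0 h and from 0.424 to 0.729 at 24 h. All but AT1G54410 rose with salt in every line, and AT1G54410 was called in Col-0 and OE-6. A rise in every line was seen for 29.7% of the 91 and for 20.7% of the loci at 5 CPM or more in Col-0. The group was put together by such stress roles, so nothing is read from its count. AT4G30650, of the low temperature and salt responsive protein family of small hydrophobic membrane proteins, measured 59.0, 64.2 and 53.7 CPM in the mutant, against 126 and 128 CPM in Col-0 and 160.0, 144 and 164 CPM in OE-6 at 0 h. Under salt it stood at 309.8, 267 and 216 CPM in the mutant, against 562, 519.9 and 462 CPM in Col-0 and 363, 477 and 615 CPM in OE-6. Its mutant level after salt exceeded the Col-0 level before salt in every library, while remaining under every Col-0 library of the same time. COR413IM1, a cold-regulated protein of the chloroplast inner envelope, measured 71.3, 86.5 and 77.2 CPM in the mutant, against 130.1 and 103 CPM in Col-0 and 107, 129.5 and 109 CPM in OE-6 at 0 h. The 24 h values were 268, 263 and 198 CPM in the mutant, against 508, 426 and 358 CPM in Col-0 and 311, 542 and 354 CPM in OE-6. AT1G54410 (HIRD11), a small dehydrin, was abundant, at 1250.2, 1182 and 969 CPM in the mutant, against 1978, 1839 and 1625 CPM in Col-0 and 1557, 2227 and 1701 CPM in OE-6 at 24 h.

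AT1G51090, which has a heavy-metal-associated domain, measured 5.33, 8.13 and 5.24 CPM in the mutant, against 16.1 and 11.0 CPM in Col-0 and 19.5, 19.0 and 14.7 CPM in OE-6 at 0 h. After 24 h in salt the gene stood at 56.5, 63.2 and 59.1 CPM in the mutant, against 148, 133 and 139.7 CPM in Col-0 and 89.4, 182 and 139.8 CPM in OE-6. The gene thus rose several-fold in every line, and the mutant stayed at 0.461 and 0.424 of Col-0. AT5G17460, annotated as a subunit C of glutamyl-tRNA(Gln) amidotransferase, measured 5.46, 5.66 and 5.63 CPM in the mutant, against 11.4 and 7.60 CPM in Col-0 and 9.26, 8.88 and 9.16 CPM in OE-6 at 0 h. At 24 h it measured 43.4, 43.8 and 47.5 CPM in the mutant, against 112, 112 and 94.2 CPM in Col-0 and 59.7, 145 and 113 CPM in OE-6, with OE-6 replicate 1 far below the other OE-6 libraries and nearest to the mutant. NHX2, a vacuolar sodium and potassium proton exchanger, had ratios of 0.581 and 0.729. The metallothionein MT2A, which binds metal ions, had ratios of 0.627 and 0.726. XERICO, a RING-type protein known to raise abscisic acid levels when overexpressed, had ratios of 0.715 and 0.709.

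Promoter stretches are shown for AT4G15450, AT4G30650 and AT5G17460, the 3 members that hold, in the 300 bases before the annotated gene start, both an evening element and the core of the dehydration-responsive element (DRE). All 3 rose with salt in every line, as did 29.7% of the 91 and 20.7% of the loci at 5 CPM or more in Col-0. How many of all tested promoters hold both motifs was not counted, so nothing is read from these 3. The evening element, AAAATATCT, is bound by clock transcription factors, and the DRE core, CCGAC, by CBF and DREB factors. The sequences come from the RefSeq TAIR10.1 assembly and read 5′ to 3′ on the gene's strand, with both motifs on either strand in capitals. The AT4G15450 stretch is chr4:8838956-8839255 on the plus strand, the AT4G30650 stretch chr4:14953904-14954203 on the plus strand, and the AT5G17460 stretch chr5:5759818-5760117 on the minus strand.
AT4G15450: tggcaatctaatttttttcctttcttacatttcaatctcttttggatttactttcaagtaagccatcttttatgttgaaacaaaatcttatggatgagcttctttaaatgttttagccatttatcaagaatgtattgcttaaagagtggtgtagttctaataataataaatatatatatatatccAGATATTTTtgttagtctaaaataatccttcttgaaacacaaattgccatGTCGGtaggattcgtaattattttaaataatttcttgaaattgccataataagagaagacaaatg
AT4G30650: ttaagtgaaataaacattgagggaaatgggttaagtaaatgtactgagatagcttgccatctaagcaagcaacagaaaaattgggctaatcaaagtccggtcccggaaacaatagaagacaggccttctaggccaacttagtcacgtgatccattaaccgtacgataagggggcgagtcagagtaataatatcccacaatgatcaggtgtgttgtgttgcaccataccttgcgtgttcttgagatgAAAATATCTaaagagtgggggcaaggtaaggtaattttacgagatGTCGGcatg
AT5G17460: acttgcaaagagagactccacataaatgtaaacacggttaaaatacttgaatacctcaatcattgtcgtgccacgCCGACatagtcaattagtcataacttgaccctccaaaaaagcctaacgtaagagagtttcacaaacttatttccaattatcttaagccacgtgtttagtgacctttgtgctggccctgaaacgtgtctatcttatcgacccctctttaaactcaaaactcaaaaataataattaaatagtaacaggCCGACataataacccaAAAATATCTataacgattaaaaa
In these letters the evening element lies 115 bases before the gene start in AT4G15450, on the reverse strand, 54 bases before it in AT4G30650 and 23 bases before it in AT5G17460. A match is a description of the letters only and not evidence of binding.

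Searching the same 300 bases of every member, on both strands, found the evening element in 9 of 91 promoters (9.9%), compared with 3.1% of the 14144 promoters of tested nuclear loci at 5 CPM or more in Col-0 and 2.9% of all 21145 tested. The DRE core was in 20 members (22.0%) and in 15.3% of the loci at that level. The core of the abscisic acid responsive element, ACGTG, was in 21 (23.1%) and in 25.2%. The G-box CACGTG, which contains the ABRE core, was in 8 (8.8%) and in 8.0%. The CCA1-binding site AAAAATCT was in 10 (11.0%) and in 8.3%. These shares are descriptions without a test.

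**Figure D4:**
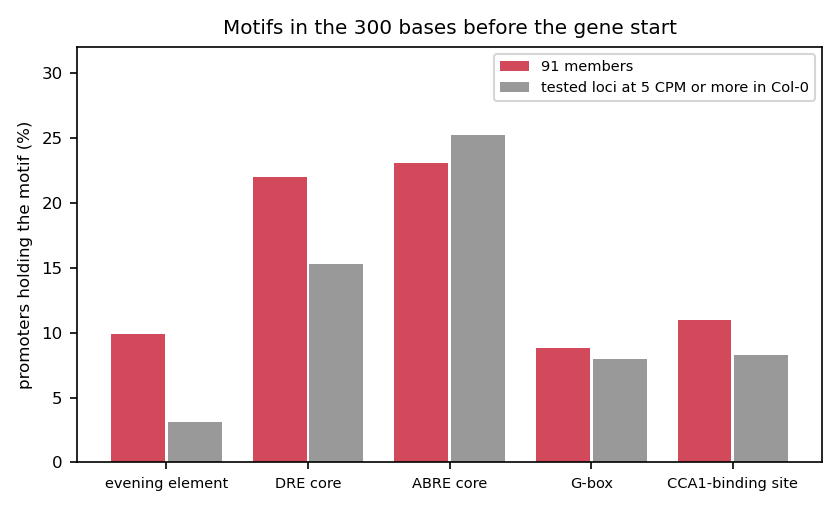
Percentage of promoters (the 300 bases before the gene start, both strands) that hold each motif, for the 91 genes (red) and for the tested loci at 5 CPM or more in Col-0 at both times (grey). The evening element stands at 9.9% against 3.1%, and the G-box at 8.8% against 8.0%.

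The evening elements of the other members are given with 20 bases on either side, to let their flanks be compared; capitals mark the element, on whichever strand it was found.
IDD16 (chr1:8848915-8848963, plus strand): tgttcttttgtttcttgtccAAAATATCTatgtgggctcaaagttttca
AT1G54410 (chr1:20310946-20310994, minus strand): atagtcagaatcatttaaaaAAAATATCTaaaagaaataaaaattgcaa
AT1G54410 (chr1:20310903-20310951, minus strand): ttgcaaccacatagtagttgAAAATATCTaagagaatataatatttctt
MT2A (chr3:2890612-2890660, minus strand): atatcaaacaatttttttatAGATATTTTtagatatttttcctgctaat
AT3G59210 (chr3:21889398-21889446, plus strand): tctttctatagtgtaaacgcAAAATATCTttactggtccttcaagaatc
AT4G16880 (chr4:9497414-9497462, minus strand): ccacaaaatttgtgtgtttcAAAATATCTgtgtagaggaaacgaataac
AT4G31050 (chr4:15114144-15114192, plus strand): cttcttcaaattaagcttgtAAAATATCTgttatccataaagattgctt
AT1G54410 has 2 copies, both shown. MT2A also has 2, of which the stretch shown holds both, 10 bases apart and on the reverse strand, with capitals on the first. The elements lie 23 to 129 bases before the gene start. The genes that hold them have unlike annotations: IDD16 is an INDETERMINATE DOMAIN zinc-finger protein, AT3G59210 an F-box protein with leucine-rich repeats, AT4G15450 a senescence and dehydration-associated protein, AT4G16880 a leucine-rich repeat protein, and AT4G31050 an octanoyltransferase of lipoate synthesis.

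Genes of starch turnover were present at similar ratios. SEX1 encodes glucan, water dikinase, which phosphorylates starch and so opens it to breakdown. Before salt it measured 453, 562 and 430.5 CPM in the mutant, against 841 and 624 CPM in Col-0 and 600.5, 768 and 650.2 CPM in OE-6. After salt it measured 363, 454 and 331 CPM in the mutant, against 607, 702 and 689.8 CPM in Col-0 and 550.0, 939 and 569 CPM in OE-6, with OE-6 replicate 2 far above the other OE-6 libraries. LSF2, a phosphatase that removes phosphate from starch, had ratios of 0.658 and 0.648. LDA, the limit dextrinase that cuts starch branch points, had ratios of 0.677 and 0.656. SEX4, a further starch phosphatase, was 1 of the 3 loci just outside the limit.

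Per kilobase of transcript, THI1 was the most abundant member in Col-0, at 2598 CPM per kb at 0 h and 2248 at 24 h. THI1 makes the thiazole part of thiamine in the chloroplast. At 0 h it measured 2931, 2979 and 2754 CPM in the mutant, against 4344 and 4002 CPM in Col-0 and 4264, 3974 and 4316 CPM in OE-6. The 24 h libraries held 2422, 2160.4 and 1611 CPM in the mutant, against 3626, 3492 and 3713 CPM in Col-0 and 2528, 3728 and 2820.3 CPM in OE-6, where OE-6 replicate 1 was only slightly above the highest mutant library. Other genes of plastid metabolism were FNR2, a ferredoxin-NADP+ oxidoreductase at the end of photosynthetic electron transport, with ratios of 0.717 and 0.626, and OEP16-1, an outer envelope channel protein, with 0.653 and 0.558. AT5G23240 (DJC76), a DnaJ-type co-chaperone, had 0.615 and 0.602.

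Roles in transcription and chromatin were known or annotated for 9 members, with ratios of 0.503 to 0.738 at 0 h and 0.515 to 0.732 at 24 h. JMJD5 (JMJ30), a Jumonji-domain histone demethylase that is part of the circadian system, measured 51.9, 62.9 and 49.97 CPM in the mutant, against 105 and 92.7 CPM in Col-0 and 105, 115 and 107 CPM in OE-6 at 0 h. Under salt it stood at 127, 161 and 77.6 CPM in the mutant, against 192, 211 and 217 CPM in Col-0 and 183, 233 and 234 CPM in OE-6, where mutant replicate 3 was the lowest library and replicate 2 the highest of the mutant. AT2G47890, a B-box zinc-finger protein with a CCT domain, measured 15.6, 16.4 and 16.1 CPM in the mutant, against 34.2 and 25.9 CPM in Col-0 and 31.3, 31.4 and 32.7 CPM in OE-6 at 0 h. The 24 h values were 28.8, 27.4 and 31.4 CPM in the mutant, against 48.0, 49.1 and 44.2 CPM in Col-0 and 41.7, 57.8 and 49.9 CPM in OE-6. MYB47 was low throughout and had ratios of 0.503 and 0.519, and its Col-0 replicates at 0 h were 4.23 and 7.02 CPM. FBH3 (AKS1), a bHLH activator of CONSTANS and of stomatal potassium channel genes, had ratios of 0.701 and 0.683. AT1G07050, with a CCT motif, had 0.738 and 0.682, and AT2G25590, a Tudor-like protein, 0.538 and 0.515.

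The members held 4 UDP-glycosyltransferases, which attach sugars to small molecules. UGT84A3, which glucosylates hydroxycinnamic acids such as sinapate, measured 13.0, 15.1 and 14.1 CPM in the mutant, against 40.8 and 28.8 CPM in Col-0 and 41.4, 35.7 and 35.0 CPM in OE-6 at 0 h. After 24 h in salt the gene stood at 91.7, 79.5 and 102 CPM in the mutant, against 147, 129 and 144 CPM in Col-0 and 145, 172 and 152 CPM in OE-6. The ratio was 0.405 before salt and 0.65 after it. UGT71C5, which glucosylates abscisic acid, had ratios of 0.70 and 0.696, HYR1 0.728 and 0.543, and AT5G05890 0.674 and 0.616. TGG2, a myrosinase that hydrolyses glucosinolates, had ratios of 0.653 and 0.693. The cytochrome P450 CYP706A6 went from 0.676 to 0.456, and CYP76C1, which oxidises the monoterpenoid linalool, from 0.673 to 0.533.

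Receptors, kinases and immunity-related proteins made up 9 members. AT4G16880, a leucine-rich repeat protein, had the lowest ratio of any member at 24 h and one of the higher ratios, 0.744, at 0 h. Before salt it measured 23.1, 23.5 and 23.0 CPM in the mutant, against 32.9 and 29.4 CPM in Col-0 and 29.2, 34.4 and 32.04 CPM in OE-6. At 24 h it measured 4.03, 6.52 and 1.86 CPM in the mutant, against 15.8, 13.3 and 11.2 CPM in Col-0 and 10.3, 15.4 and 11.9 CPM in OE-6, and mutant replicate 3 was the lowest library. AT5G66790, annotated as a protein kinase, measured 3.69, 4.87 and 4.29 CPM in the mutant, against 8.18 and 6.64 CPM in Col-0 and 5.31, 6.65 and 5.73 CPM in OE-6 at 0 h. The 24 h values were 3.92, 4.21 and 2.97 CPM in the mutant, against 10.2, 11.7 and 9.18 CPM in Col-0 and 9.08, 16.9 and 8.45 CPM in OE-6. A second kinase, AT5G39030, had ratios of 0.628 and 0.418. RLP33, a receptor-like protein, measured 3.65, 4.52 and 3.74 CPM in the mutant, against 7.57 and 5.85 CPM in Col-0 and 5.99, 7.67 and 5.82 CPM in OE-6 at 0 h. The 24 h values were 44.6, 61.1 and 51.8 CPM in the mutant, against 95.7, 78.7 and 100.1 CPM in Col-0 and 71.1, 127 and 70.4 CPM in OE-6. ZAR1, a nucleotide-binding immune receptor that recognises bacterial effectors through partner kinases, had ratios of 0.732 and 0.585. The glutamate receptor-like channel genes GLR1.1 and GLR3.5 had ratios of 0.663 and 0.668 at 0 h and of 0.525 and 0.594 at 24 h.

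The remaining 38 members have mixed or no annotation, 12 of them as uncharacterized proteins, with ratios of 0.42 to 0.749 at 0 h and 0.34 to 0.747 at 24 h. The lowest of these was AT5G11330, an FAD/NAD(P)-binding oxidoreductase. At 0 h it measured 36.8, 36.8 and 35.9 CPM in the mutant, against 93.3 and 80.8 CPM in Col-0 and 88.2, 83.5 and 92.3 CPM in OE-6. After salt it measured 24.4, 35.7 and 21.2 CPM in the mutant, against 76.2, 77.9 and 84.5 CPM in Col-0 and 76.2, 92.4 and 79.7 CPM in OE-6. The highest mutant library of either time was at 36.8 CPM and the lowest library of the other lines at 76.2 CPM. AT2G33830 (DRM2), a dormancy and auxin-associated protein, measured 253, 231 and 304 CPM in the mutant, against 534 and 535 CPM in Col-0 and 398, 425 and 458 CPM in OE-6 at 0 h. The 24 h values were 133, 133 and 124 CPM in the mutant, against 235, 268 and 235 CPM in Col-0 and 165, 207 and 305 CPM in OE-6. Ratios at 0 h and 24 h were 0.541 and 0.427 for AT1G68940, with armadillo repeats, and 0.701 and 0.407 for AT3G62550, of the adenine nucleotide alpha hydrolase-like family. They were 0.518 and 0.553 for AT1G11210, of the DUF761 family, and 0.556 and 0.519 for AT5G03830, annotated as binding the CDK inhibitor P21. They were 0.654 and 0.467 for AT5G66052 and 0.511 and 0.544 for AT5G57887, both uncharacterized. AT5G57887 overlaps AT5G57880 on the same strand, and AT3G18320, an F-box protein with ratios of 0.628 and 0.525, is 96.3% identical to AT3G44120 over 1363 bases, so both counts are uncertain. FAD2, the desaturase that makes linoleic acid in the endoplasmic reticulum, had ratios of 0.673 and 0.631, and the polyubiquitin gene UBQ3 0.736 and 0.535.

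OE-6 was compared with Col-0 to describe where these genes stood in the complementation line. The rule does not use this contrast directly, but it holds both lines above the mutant. Loci that stayed low in OE-6 had thus been removed, and nothing is read below about a return to wild-type level. None of the 91 was called by edgeR's quasi-likelihood test at 0 h (0.0141% of all genes in either direction) or at 24 h (0.00470%). At an unadjusted p under 0.05 the test had 1 member at 0 h (1.1%, beside 2.05% of all genes) and 3 at 24 h (3.3%, beside 7.96%), and DESeq2 called 0 at each time. The log2 difference of OE-6 over Col-0 ran from -0.34 to 0.46 at 0 h, with a median of -0.01, and from -0.34 to 0.69 at 24 h, with a median of 0.04. The ends at 0 h were AT5G66790 (-0.34 ± 0.27, log2 ± SE) and AT3G18320 (0.46 ± 0.20). At 24 h they were OEP16-1 (-0.34 ± 0.13) and AT5G35480 (0.69 ± 0.33), an uncharacterized protein. A p that misses the threshold does not show that the lines were alike.

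From 0 h to 24 h of salt most of the members changed, in both directions. Of the 91, edgeR's quasi-likelihood test called 30 higher and 31 lower at 24 h than at 0 h in Col-0, 30 and 37 in the mutant, and 37 and 29 in OE-6. Among all genes tested the shares called higher and lower were 25.4% and 21.4% in Col-0, 31.3% and 26.7% in the mutant, and 29.5% and 25.7% in OE-6. Among the 14159 loci at 5 CPM or more in Col-0 they were 24.5% and 24.2%, 31.6% and 28.9%, and 29.1% and 28.8%. The members' median log2 change was 0.001 for Col-0, -0.01 for the mutant and -0.07 for OE-6, beside 0.03 over all genes in each line.

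Calls of the 3 lines were then set side by side. The rule had removed loci low in the mutant at 1 time only, so the sharing of direction is a description. In all 3 lines 27 members rose (29.7%, beside 20.7% of the loci at that level) and 28 fell (30.8%, beside 19.8%). Of the rest, 21 were called in 1 or 2 lines, 15 in none (16.5%, beside 27.7%), and 0 in opposite directions, which 9 of the 14159 loci were. 

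**Figure D5:**
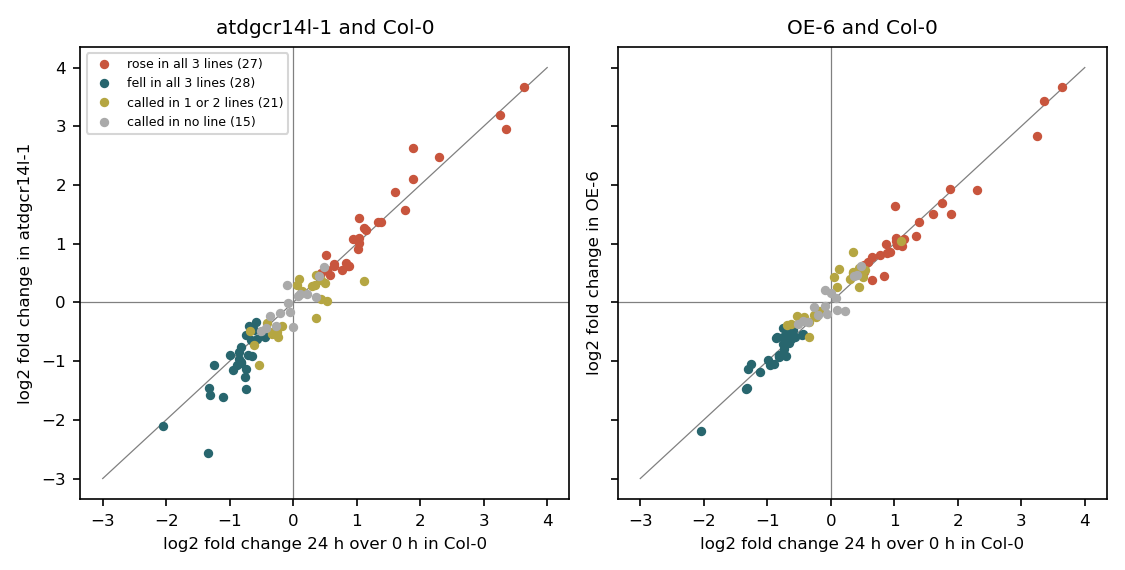
Log2 fold change from 0 h to 24 h of each of the 91 genes in Col-0 (horizontal) against the mutant (left) and OE-6 (right), coloured by the lines in which edgeR called it, with the line of equal change. The 27 genes that rose and the 28 that fell in every line have colours of their own, and not all lie near the line. In the left panel AT4G16880, of the 28, lies lowest and under the line (-1.34 and -2.56). UGT84A3, of the 27, lies above it there (1.88 and 2.64).

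The largest rise in each line was that of RLP33, at 3.64 ± 0.29 in Col-0, 3.66 ± 0.25 in the mutant and 3.67 ± 0.25 in OE-6 (log2 ± SE, adjusted p = 5.78e-07, 4.77e-08 and 6.36e-08 by edgeR's quasi-likelihood test). AT5G17460 rose by 3.35 ± 0.32 in Col-0, 2.95 ± 0.27 in the mutant and 3.43 ± 0.27 in OE-6. AT1G51090 rose by 3.25 ± 0.31 in Col-0, 3.20 ± 0.27 in the mutant and 2.84 ± 0.26 in OE-6. These 3 genes, a receptor-like protein, a predicted amidotransferase subunit and a metal-binding-domain protein, were called in every line. AT1G11210 rose by 2.30 ± 0.28 in Col-0, 2.47 ± 0.25 in the mutant and 1.91 ± 0.24 in OE-6. AT4G30650 rose by 1.89 ± 0.21 in Col-0, 2.1 ± 0.18 in the mutant and 1.51 ± 0.18 in OE-6. The cold-regulated COR413IM1 rose by 1.76 ± 0.25 in Col-0, 1.57 ± 0.21 in the mutant and 1.69 ± 0.21 in OE-6. UGT84A3, the hydroxycinnamate glucosyltransferase, rose by 1.88 ± 0.17 in Col-0, 2.64 ± 0.15 in the mutant and 1.94 ± 0.15 in OE-6. The highest adjusted p of these 7 genes in any line was 5.62e-05.

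The deepest fall in Col-0 and OE-6 was that of AT5G05890, a UDP-glycosyltransferase, with log2 changes of -2.04 ± 0.13 in Col-0, -2.1 ± 0.13 in the mutant and -2.18 ± 0.13 in OE-6. AT4G16880 had the deepest in the mutant, with -1.34 ± 0.32 in Col-0, -2.56 ± 0.31 in the mutant and -1.47 ± 0.29 in OE-6. Both were called in every line. FNR2 changed by -1.33 ± 0.18 in Col-0, -1.45 ± 0.17 in the mutant and -1.46 ± 0.17 in OE-6. AT1G68940 changed by -1.30 ± 0.28 in Col-0, -1.58 ± 0.27 in the mutant and -1.14 ± 0.26 in OE-6. CYP706A6 changed by -1.11 ± 0.31 in Col-0, -1.62 ± 0.29 in the mutant and -1.19 ± 0.28 in OE-6. Its call in Col-0 (adjusted p = 0.00932) did not hold when Col-0 0 h replicate 1 was left out (adjusted p = 0.0597). AT2G33830 changed by -1.25 ± 0.19 in Col-0, AT3G62550 by -1.47 ± 0.27 in the mutant, and AT2G29310, an NAD(P)-binding Rossmann-fold protein, by -1.07 ± 0.14 in OE-6. The adjusted p of these 8 genes in the lines named was between 1.24e-08 and 0.00932.

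The difference between the mutant and another line in the change with salt was fitted as an interaction. It is built from the levels that the rule used, which had to be low in the mutant at both times, so loci that differ at 1 time only had been removed and the values are descriptions. EdgeR's quasi-likelihood test called 0 of the 91 for the mutant against Col-0 (0.00470% of all genes in either direction) and 0 against OE-6 (0.00940%), and nothing is read from these counts. At an unadjusted p under 0.05 there were 2 members against Col-0 (2.2%, beside 8.93% of all genes) and 7 against OE-6 (7.7%, beside 9.77%), and DESeq2 called 0 in each. The difference in log2 change ran from -1.22 to 0.75 against Col-0, with a median of -0.04, and from -1.12 to 0.70 against OE-6, with a median of -0.08. UGT84A3 stood at 0.75 ± 0.21 against Col-0 and 0.70 ± 0.20 against OE-6 (log2 ± SE). The lowest differences were those of AT4G16880 against Col-0, at -1.22 ± 0.44, and of AT5G66790 against OE-6, at -1.12 ± 0.34.

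The members can be set beside 6 lists of Arabidopsis genes with known roles, for the mutant against Col-0 with edgeR's quasi-likelihood test. Over all 21282 genes tested, this contrast called 431 in either direction at 0 h and 2633 at 24 h. The shares called lower were 0.573% and 4.67%. The rule itself was met by 0.692% of the 14159 loci at 5 CPM or more in Col-0. With only the 2 groups compared in the fit, it called 2330 at 0 h and 827 at 24 h, the reverse order. List counts are given for the fit of all groups alone. A difference in list calls between 0 h and 24 h is therefore not read as a pattern. The counts of each list below stand beside these values. Of 23 genes of the cold and CBF regulon, 5 meet the rule and are low in this contrast by choice: the members COR413IM1 and AT5G17460, and COR15B, KIN2 and DREB1A, which were left out by name. Of the other 18, 2 were called lower at 0 h, COR15A and LTI78 (-1.83 ± 0.36, adjusted p = 0.0164), and 2 lower at 24 h, CBF1 (-1.68 ± 0.44, adjusted p = 0.0243) and GolS3 (-1.48 ± 0.39, adjusted p = 0.0245); 0 were called higher, and LTI78, CBF1 and GolS3 are named after their values were seen. Their median log2 difference was -0.57 and -0.44, beside -0.01 over all genes at each time. KIN2, a small stress-induced protein, had mutant to Col-0 ratios of 0.323 and 0.517. COR15B, a chloroplast protein that protects membranes in freezing, had ratios of 0.155 and 0.256. Its paralog COR15A stood at -3.47 ± 0.48 before salt (adjusted p = 0.0018) and -0.96 ± 0.41 after 24 h of it (adjusted p = 0.134) and, unlike the other 7 loci left out by name, did not meet the rule.

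Of 25 clock and photoperiod genes, ELF4 and FKF1 meet the rule. Of the other 23, 1 was called higher and 1 lower at 0 h, and 3 higher and 2 lower at 24 h. RVE8, a MYB-like activator that binds the evening element, was higher in the mutant, at 2.97 ± 0.39 before salt (adjusted p = 0.000868) and 2.03 ± 0.31 after 24 h of it (adjusted p = 0.00138). ELF4, a component of the evening complex, had ratios of 0.496 and 0.518. CO, the photoperiodic flowering regulator CONSTANS, stood at -0.15 ± 0.19 before salt (adjusted p = 0.879) and -1.17 ± 0.18 after 24 h of it (adjusted p = 0.00137). FKF1, a blue-light receptor F-box protein left out by name, averaged 62.8 ± 4.5 CPM in the mutant and 87.9 ± 6.4 in Col-0 at 0 h. DREB1A, 1 of the CBF factors and also left out by name, averaged 2.55 ± 0.46 CPM in the mutant and 6.20 ± 0.83 in Col-0 before salt. After salt the means were 5.27 ± 0.36 and 16.6 ± 2.1 CPM.

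The clock list and the other 4 lists held 0 of the 91 members. For the counts that follow, 431 of all 21282 genes were called in either direction at 0 h and 2633 at 24 h. With only the 2 groups compared in the fit these were 2330 and 827, so fewer calls at 0 h are not read as a result. Of 15 light signalling genes 0 were called at 0 h and 1 was called higher at 24 h, with HYH at 1.35 ± 0.38 before salt (adjusted p = 0.0943) and 1.32 ± 0.32 after 24 h of it (adjusted p = 0.0178). HYH is a bZIP factor of light signalling. Of 10 chlorophyll breakdown genes, NOL, a chlorophyll b reductase, meets the rule, with ratios of 0.682 and 0.608. Of the other 9, 0 were called at 0 h, and PPH, a pheophytinase, was called higher at 24 h. Of 20 core splicing factors 0 were called at 0 h and 4 lower at 24 h, among them U2AF35B, at -0.34 ± 0.14 before salt (adjusted p = 0.298) and -0.56 ± 0.12 after 24 h of it (adjusted p = 0.0106), SR34 and RS40. Of 15 osmolyte and dehydration genes 0 were called at 0 h, and 3 higher and 2 lower at 24 h, with GolS1, which starts raffinose synthesis, at 0.83 ± 0.44 before salt (adjusted p = 0.5) and 2.09 ± 0.36 after 24 h of it (adjusted p = 0.00333), and RD20 and ERD5 also higher.

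In gene structure the members had fewer exons at the median than the tested loci, which were not matched to them by level. The median number of exons in the longest RefSeq transcript was 3, beside 5 for the tested loci at 5 CPM or more in Col-0 and 4 for all tested. Of the 91, 17 (18.7%) had no intron, beside 10.5% and 16.4%. More than 1 transcript was annotated for 50 (54.9%), beside 51.3% and 46.8%. Median transcript length was 1614 bases, beside 1843 and 1704, and median GC content 41.0%, beside 41.5% and 41.3%. These are descriptions without a test.

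The members lay on all 5 chromosomes, 18, 17, 20, 15 and 21 of them on chromosomes 1 to 5. By gene start, 18 lay within 100 kb of another member. The densest stretch was on chromosome 3, from AT3G59210 (chr3:21889476-21891944) to AT3G59490 (chr3:21984596-21986351), and held 4 members, AT3G59320 and AT3G59330 among them. The other neighbours were AT1G07050 and UGT71C5 (60.0 kb apart), AT1G51090 and FBH3 (10.7 kb), NRP1 and UPS2 (32.4 kb), AT2G04170 and XERICO (44.4 kb), AT2G47890 and RPH1 (54.7 kb), BGLU44 and AT3G18320 (97.6 kb), and AT4G15450 and UGT84A3 (13.4 kb). Another gene overlapped 28 members, on the opposite strand for 24 and on the same strand for 5, and reads of such pairs may not be told apart where counting ignored the strand. Overlaps were not counted over all tested loci.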

How the data were processed

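Per the labels' protocols, seedling poly(A) RNA was turned into dUTP-stranded libraries and sequenced. For each library the authors deposited whole-number estimated counts of its genes, which the labels do not describe as scaled. The submitters' processing notes name DESeq2 2.11.40.7, StringTie 2.1.7 and Bowtie2 2.4.5. Not given in the sources used here are the roles of these tools, the build and the strand setting. All libraries of a group were compared by a chi-square of counts and none was a repeat of another.

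CPM is the count over the library total times 1000000, and chose the members. Counts were then analysed in R 4.3.3 with edgeR 4.0.16: filterByExpr (21282 of 27655 genes), TMM scaling and a robust quasi-likelihood model of all 6 groups (common biological coefficient of variation 19.5%), with calls at a Benjamini-Hochberg adjusted p under 0.05. The prior count behind fold changes was edgeR's default. The procedure was tested on simulated data. Alternatives were RLE scaling, no filter, a block for the replicate number, DESeq2 1.42.0, a fit restricted to the groups compared, each library left out and, for the rule, other ratio limits, floors and scaling. A fit without the least correlated library of OE-6 24 h (replicate 2) and of atdgcr14l-1 24 h (replicate 3) was added after the data had been seen, as were the role groups and the comparison with loci at 5 CPM or more in Col-0. Gene positions, structures and sequences are those of RefSeq's TAIR10.1, matched by locus; all 91 members matched, and 34 have a symbol there. Near-identical stretches (95% over at least 100 bases) were sought with BLAST 2.17.0. Figures were drawn with Python 3.11.15 and matplotlib 3.10.9.

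Genes named are the 25 members with the lowest mean ratio to Col-0, 3 loci on either side of the limit, up to 6 rises and 6 falls in each contrast the rule did not use, members within 100 kb of another, up to 3 non-members per list with the smallest p, the loci left out by name, and members described for their role, the last chosen after their values were seen. Members and lists were chosen with earlier results of these data known.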

Additional observations from a re-analysis of the deposited data

How the results depend on the processing

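The number of members was 32 at a ratio limit of 0.67, 148 at 0.8, and 61 to 122 when 1 library was left out. The count of members called lower in the mutant at 0 h, 37 as reported, was 87 with only the groups compared, 57 with DESeq2, 24 with the replicate block, 81 without both OE-6 24 h replicate 2 and atdgcr14l-1 24 h replicate 3, and 5 to 61 without 1 library. At 24 h, 77 as reported became 46 with only the groups compared and ranged from 51 to 90 without 1 library. Members higher in OE-6 than in the mutant at 0 h, 49 as reported, were 89 with only the groups compared, 85 without both libraries and 33 to 71 without 1. At 24 h, 85 as reported became 0 with only the groups compared, 36 without both and 54 to 89 without 1. The cause of these shifts was not tested.

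Salt calls ranged from 45 to 66 in Col-0, 59 to 74 in the mutant and 60 to 72 in OE-6 when 1 library was left out, and the counts of 0 for OE-6 against Col-0 and for the differences of the salt response stayed at 0 without any 1 library. The 36 named salt changes, the largest called rises and falls of each line, were recomputed 828 times. They kept their call and direction 827 times. Having been picked for their size, they do not speak for smaller salt changes. Replicate numbers were not used to pair the samples. Deviations of same-numbered libraries correlated at -0.162 to 0.324 over 40 pairs, of which 4 were over 0.1 and 20 below 0. Between OE-6 at 0 h and at 24 h they were 0.324, 0.151 and 0.077 for replicates 1 to 3. So few libraries a group cannot exclude pairing. With 2 or 3 libraries a group, small differences of low genes may have been missed.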
